A study of Mus musculus with 14 samples.

Results

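A set of 8 genes of the bile duct epithelium was followed across the liver transcriptomes of mice after bile diversion or gastric bypass. They were chosen by name as genes that mark cholangiocytes, the cells lining the bile ducts, or the ductular reaction: *Krt7*, *Krt19*, *Krt8*, *Krt18*, *Epcam*, *Sox9*, *Spp1* and *Cftr*. All 8 were found by symbol among the 25212 genes listed, and 7 of them were among the 14252 genes that had enough counts to be tested, *Cftr* being the exception. The livers of 14 C57BL/6 males were sequenced, each as 1 RNA library. All mice had been fed a high fat diet (HFD, 60% of kcal from fat) from 6 weeks of age, for 12 weeks before allocation to a group, and thus carried diet-induced obesity (DIO). The 5 DIO livers came from mice without surgery, the 4 GB-IL livers from mice whose gallbladder had been joined to the ileum 4 cm before the ileo-caecal valve with ligation of the common bile duct, and the 5 RYGB livers from mice with Roux-en-Y gastric bypass. The labels give 8 weeks after surgery, or after no surgery, for every liver. Because the DIO mice had no operation, the effect of an operation as such and that of the diverted bile cannot be told apart between GB-IL and DIO.

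Cholangiocytes modify bile on its way from the hepatocytes to the gallbladder and the gut. They are held apart from hepatocytes by their keratins, since hepatocytes make only the keratin 8 and keratin 18 pair whereas cholangiocytes add keratin 7 and keratin 19. In cholestasis and other injury, small ducts expand in what is called the ductular reaction, with cells positive for keratin 19, EpCAM, SOX9 and osteopontin, the product of *Spp1*. Osteopontin is also made by activated macrophages and stellate cells, and low *Sox9* is found in hepatocytes near the portal tract.

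The total count per liver was 18440676 to 21473005 in DIO, 19231679 to 26131278 in GB-IL and 18223135 to 28656631 in RYGB. Levels of single genes are given as CPM, the count relative to the TMM-scaled total of its library. The livers carried hepatocyte transcripts throughout, with a summed level of 12 hepatocyte genes, led by *Alb* and *Apoa1*, of 127951 to 147660 CPM in DIO and 126648 to 157682 CPM in RYGB. In GB-IL livers 1 to 4 it was 106068, 117561, 92836 and 127880 CPM. Every GB-IL liver was thus below every DIO liver, liver 4 by a small margin. *Alb* was at 57306.5 to 92394 CPM in GB-IL and 91668 to 107942 CPM in DIO, and *Apoa1* at 6240.5 to 18444.5 and 5191 to 13494 CPM. Of the 12 genes, 0 differed between GB-IL and DIO past a false discovery rate of 0.05, and 5 had a log2 fold change above 0. Calls over all genes tested were 3.15% higher and 0.112% lower. At an unadjusted p under 0.05 (edgeR quasi-likelihood test), 2 of the 12 were higher in GB-IL and 2 lower. Over all 14252 genes, 3297 had such a p in either direction. The part of this lower sum in the results was not tested. The first principal component of all genes tested placed the DIO livers between -39.6 and -18.6 and GB-IL livers 1 to 3 at 117, 92.9 and 17.7. RYGB livers 1 and 5, at -1.89 and 14.1, were also above the DIO range, and the other RYGB livers were inside it. GB-IL liver 4, at -31.2, was inside the DIO range. GB-IL liver 1 held pancreatic transcripts: *Ctrb1*, which encodes the digestive enzyme chymotrypsinogen B, was at 865 CPM there and at no more than 0.394 CPM in any other liver. *Krt13*, a keratin of stratified squamous epithelium, was at 199 CPM in GB-IL liver 1 and 19.9 CPM in GB-IL liver 2, and at no more than 0.0523 CPM in the others. Because simple epithelia of other organs also make several of the genes followed here, the 7 tested genes are given with and without these livers. For *Cftr* and for single genes of the other lists, no fold change without these livers is given. In bulk RNA of this kind, a change in the number of cells of a type and a change in RNA per cell cannot be told apart.

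The genes lie on chromosomes 5, 6, 11, 15 and 17 (GENCODE M21, GRCm38/mm10). *Krt7* (chr15:101411043-101430313), *Krt8* (chr15:101996698-102004482, minus strand) and *Krt18* (chr15:102028180-102032027) share the keratin cluster of chromosome 15, and *Krt8* and *Krt18* are direct neighbours that lie 23697 bases apart with 0 annotated genes between them. *Krt19* (chr11:100140810-100148665, minus strand) and *Sox9* (chr11:112782224-112787760) are on chromosome 11. *Epcam* lies at chr17:87635979-87651129, *Spp1* at chr5:104435118-104441050 and *Cftr* at chr6:18170687-18322768. Exons of *Krt7*, *Krt8* and *Cftr* overlap those of an annotated gene on the other strand, and those of *Spp1* overlap 1 on the same strand. Whether the counting used strand is not given in the sources used here, so reads of these overlaps could not be assigned with certainty.

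The 250 bases before the start of transcription were read from RefSeq promoter sequences on GRCm38.p6, which matched 6 of the 8 genes. The promoters of the neighbours *Krt8* (chr15:102004343-102004592, minus strand) and *Krt18* (chr15:102027966-102028215, plus strand) are shown because *Krt18* was highest relative to *Krt8* in GB-IL livers 1 and 2. That of *Spp1* (chr5:104434861-104435110, plus strand) is shown because *Spp1* differed in GB-IL and is made by several cell types. Each is printed from 5′ to 3′, with the only motif found in capitals.
Krt8: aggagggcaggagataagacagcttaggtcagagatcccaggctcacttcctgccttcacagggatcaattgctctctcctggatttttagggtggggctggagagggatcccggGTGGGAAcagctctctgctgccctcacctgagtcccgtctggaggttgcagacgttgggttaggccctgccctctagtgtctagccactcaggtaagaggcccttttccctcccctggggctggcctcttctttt
Krt18: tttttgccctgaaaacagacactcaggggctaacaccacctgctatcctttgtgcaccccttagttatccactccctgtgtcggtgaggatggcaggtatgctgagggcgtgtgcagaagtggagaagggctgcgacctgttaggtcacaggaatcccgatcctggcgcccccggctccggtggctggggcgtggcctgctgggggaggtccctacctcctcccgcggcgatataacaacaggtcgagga
Spp1: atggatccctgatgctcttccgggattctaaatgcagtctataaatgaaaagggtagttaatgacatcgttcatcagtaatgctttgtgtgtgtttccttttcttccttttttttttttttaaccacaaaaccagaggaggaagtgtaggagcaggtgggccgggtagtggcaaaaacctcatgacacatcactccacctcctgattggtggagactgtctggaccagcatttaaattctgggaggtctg
The motifs given here, searched on both strands, were GGAATG for TEAD factors, GTGGGAA for RBPJ (the DNA-binding partner of Notch), TGANTCA for AP-1 and the NF-κB consensus, none of which contains another. In all promoters matched for these genes there was 1 match to these motifs, the RBPJ letters in the *Krt8* promoter, beginning 135 bases before the RefSeq start. The windows of *Krt7*, *Krt8* and *Krt18* lie partly or wholly inside the GENCODE gene, and the *Krt8* match is inside it. A second RefSeq promoter of *Spp1* (chr5:104435942-104436191), not shown, held no match. Over 32851 RefSeq promoters of the same length, 5.42% held the RBPJ letters, 12.6% the TEAD letters, 6.75% the AP-1 letters and 0.140% the NF-κB consensus. The absence of a match says only that these letters are not in this window.

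Per kilobase of annotated exon, the levels in DIO livers spanned several orders of magnitude. *Krt8* had a mean level of 92.1 ± 29.9 (SD, n = 5) CPM per kb and *Krt18* one of 87.4 ± 27.5 CPM per kb, with overlapping ranges. *Spp1* followed at 22.4 ± 6.97 CPM per kb, and its highest DIO liver (33.6) was below the lowest of *Krt8* (61.7) and of *Krt18* (56.6). *Sox9*, *Epcam* and *Krt19* formed a lower tier, at 0.929 ± 0.493, 0.616 ± 0.206 and 0.538 ± 0.193 CPM per kb, and their ranges overlapped each other. *Krt7* was lower, at 0.128 ± 0.0419 CPM per kb, on an exon length of 7049 bases that counts every annotated exon. *Cftr* was the lowest of the set, at 0.0168 ± 0.0145 CPM per kb. In GB-IL livers the mean of *Krt18*, 294 ± 215 (SD, n = 4) CPM per kb, stood above that of *Krt8*, 130 ± 28.7 CPM per kb, although their ranges overlapped there too.

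The first comparison asked how bile diversion to the ileum changed these genes relative to obese mice without surgery. Of the 7 genes tested, 4 were higher in GB-IL livers than in DIO livers past a false discovery rate (FDR) of 0.05: *Krt19*, *Spp1*, *Krt7* and *Krt18*. Over all 14252 genes tested, 3.15% were called higher. None of the 7 was called lower, where the share over all genes was 0.112%. GB-IL livers 1 and 2 were the highest livers for *Krt7*, *Krt19*, *Krt18* and *Epcam*, and livers 1, 2 and 3 for *Spp1*, whereas GB-IL liver 4 was nearest to the DIO livers. With GB-IL livers 1 and 2 left out, 0 of the 7 genes passed the FDR, and the smallest adjusted p was 0.104 (edgeR quasi-likelihood test). No gene of the 14724 tested in that fit passed either, while 1267 had an unadjusted p under 0.05.

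**Figure D1:**
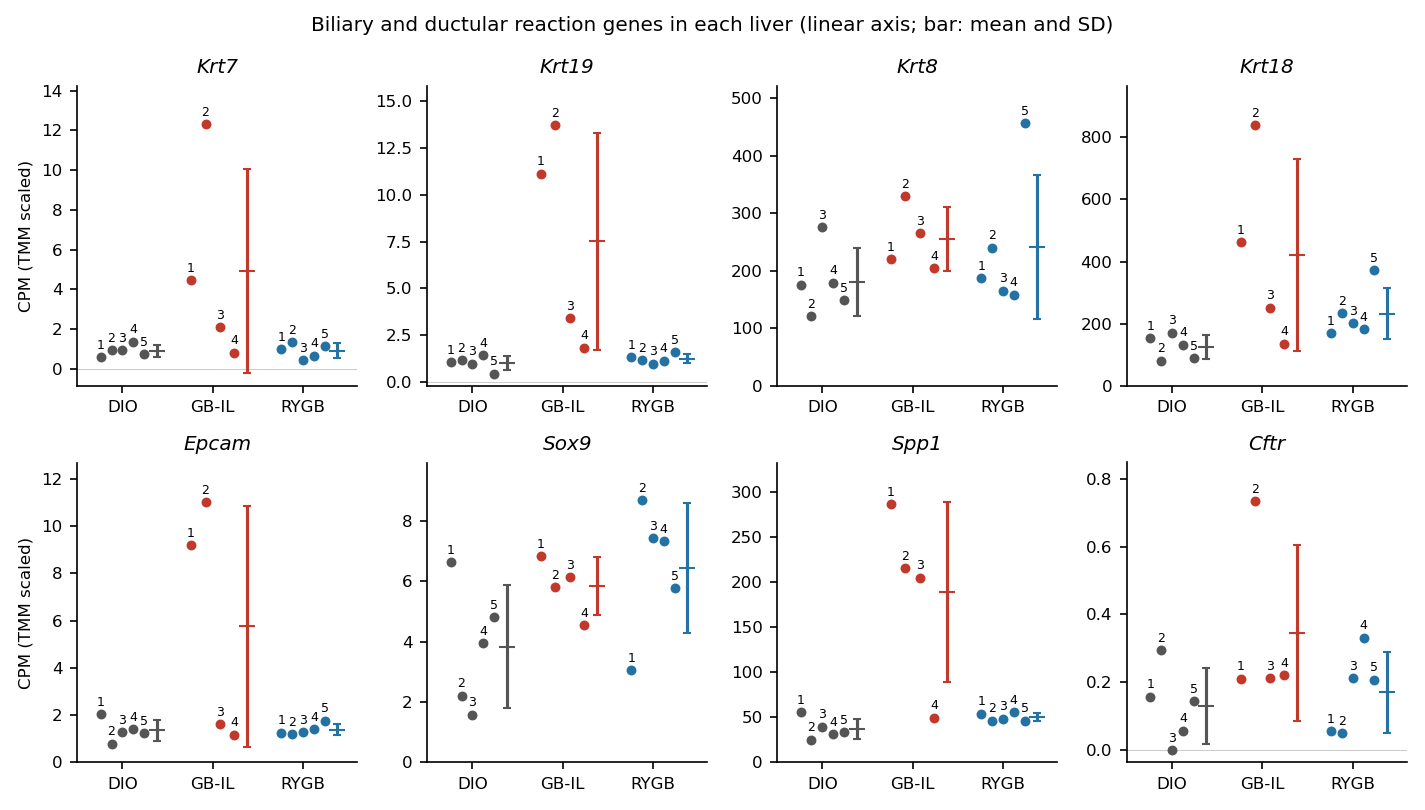
Level of each gene (CPM, linear axes) in every liver by group, with the liver number above each point and the group mean and SD as a bar at the side. GB-IL livers 1 and 2 are the 2 highest livers for Krt7, Krt19, Krt18 and Epcam, and GB-IL liver 3 joins them for Spp1 at 205 CPM. GB-IL and DIO overlap for every gene but Krt19.

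*Krt19*, the intermediate filament keratin most used to mark bile ducts, was at 1.047, 1.13, 0.967, 1.41 and 0.433 CPM in DIO livers 1 to 5. In GB-IL livers 1 to 4 it was at 11.1, 13.7, 3.39 and 1.81 CPM. The RYGB livers 1 to 5 had 1.31, 1.13, 0.951, 1.12 and 1.59 CPM. Every GB-IL liver was thus above every DIO and every RYGB liver. Of all genes tested, 2.67% had all GB-IL livers above all DIO livers and 1.27% had them above all RYGB livers. The fitted log2 fold change against DIO was 2.90 (SE 0.506, adjusted p = 0.0278). Without GB-IL livers 1 and 2 it was 1.35 (adjusted p = 0.160).

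*Krt7*, the other keratin that separates ducts from hepatocytes, was at 0.576, 0.935, 0.916, 1.36 and 0.721 CPM in DIO. It reached 4.47, 12.3 and 2.08 CPM in GB-IL livers 1 to 3 and was at 0.812 CPM in liver 4. In RYGB it was at 0.984, 1.33, 0.422, 0.662 and 1.14 CPM. GB-IL livers 1 to 3 were above all DIO livers, and liver 4 fell within the DIO range. The log2 fold change was 2.43 (SE 0.601, adjusted p = 0.0415), and 0.65 without GB-IL livers 1 and 2 (adjusted p = 0.851).

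*Krt18*, the type I keratin of simple epithelia, was at 154, 81.3, 171, 133 and 88.7 CPM in DIO. It was at 462, 840, 252 and 136 CPM in GB-IL livers 1 to 4. The RYGB livers had 169.8, 234, 202, 183 and 373 CPM. Livers 1 to 3 of GB-IL exceeded all DIO livers, and so did 4 of the 5 RYGB livers. Against DIO the log2 fold change was 1.75 (SE 0.429, adjusted p = 0.0406), and 0.60 without GB-IL livers 1 and 2 (adjusted p = 0.748).

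*Krt8*, the type II partner with which keratin 18 forms filaments in hepatocytes and ducts alike, was at 176, 121, 276, 179.6 and 149 CPM in DIO. The GB-IL livers had 220.4, 329.8, 265 and 204 CPM. In RYGB it was at 187, 239.99, 165, 159 and 457 CPM. The 3 groups overlapped, and RYGB liver 5 was the highest of all livers. GB-IL and DIO differed by a log2 fold change of 0.50 (SE 0.321, adjusted p = 0.342), or 0.36 without GB-IL livers 1 and 2.

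The pair therefore differed in proportion between livers. The *Krt18* count divided by the *Krt8* count of the same liver was 0.595 to 0.874 in DIO and 0.816 to 1.22 in RYGB. In GB-IL livers 1 to 4 it was 2.10, 2.55, 0.948 and 0.666. The ratios of livers 1 and 2 were above those of all other livers, that of liver 3 was above all DIO livers, and that of liver 4 lay inside the DIO range. In RYGB, 4 of the 5 livers also had a ratio above every DIO liver. This ratio within a library does not depend on how libraries are scaled.

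**Figure D2:**
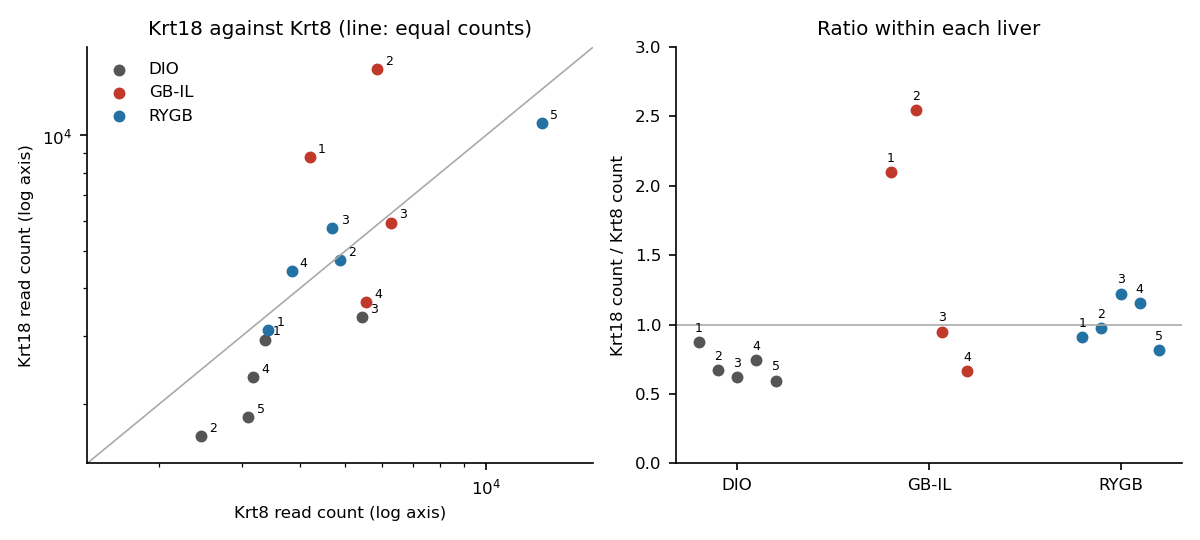
Left, the Krt18 count against the Krt8 count of each liver on log axes, with a line of equal counts and liver numbers beside the points. Right, the ratio of the counts within each liver, where GB-IL livers 1 and 2 stand at 2.10 and 2.55 and no other liver exceeds 1.22.

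*Epcam*, the epithelial cell adhesion molecule, was at 2.04, 0.787, 1.27, 1.41 and 1.25 CPM in DIO. It was at 9.19 and 11.01 CPM in GB-IL livers 1 and 2, and at 1.61 and 1.18 CPM in livers 3 and 4. The RYGB livers had 1.26, 1.18, 1.27, 1.41 and 1.77 CPM. Only GB-IL livers 1 and 2 exceeded the DIO livers. These livers also held squamous transcripts, whose part in the level of *Epcam* was not tested. The log2 fold change of 2.08 (SE 0.544) missed the FDR (adjusted p = 0.0510), and without those livers the log2 fold change was 0.02 (adjusted p = 0.996).

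*Sox9*, a transcription factor of the biliary lineage, was at 6.65, 2.21, 1.58, 3.96 and 4.81 CPM in DIO. The GB-IL livers had 6.83, 5.82, 6.15 and 4.54 CPM. In RYGB it was at 3.06, 8.68, 7.43, 7.32 and 5.78 CPM. The DIO livers spread widely and overlapped both operated groups. Between GB-IL and DIO its log2 fold change was 0.60 (SE 0.374, adjusted p = 0.329), or 0.45 without GB-IL livers 1 and 2.

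*Spp1*, which encodes the secreted glycoprotein osteopontin, was at 55.3, 25.1, 39.5, 31.5 and 33.3 CPM in DIO. In GB-IL livers 1 to 4 it was at 286, 215, 205 and 49.5 CPM. The RYGB livers lay close together at 54.1, 46.1, 48.4, 56.0 and 46.2 CPM. The same livers 1 to 3 of GB-IL were above every DIO and RYGB liver, and liver 4 was within the DIO range. With a log2 fold change of 2.36 (SE 0.366, adjusted p = 0.0278) it had the third smallest p of all genes tested in this comparison. It was the tested gene of the set with the largest remaining log2 fold change without GB-IL livers 1 and 2, at 1.75 (adjusted p = 0.104). The *Spp1* reads for each *Krt19* read numbered 15.7 to 60.3 in GB-IL, 22.2 to 76.9 in DIO and 29.02 to 50.96 in RYGB, so that the groups overlapped in this ratio.

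*Cftr*, the chloride channel through which cholangiocytes secrete fluid, was near the limit of detection and was not tested across genes. The counts were 3, 6, 0, 1 and 3 in DIO, 4, 13, 5 and 6 in GB-IL, and 1, 1, 6, 8 and 6 in RYGB. In the DIO liver with 0 counts, a level of up to 0.153 CPM (3 counts) could not be seen. The summed count in GB-IL relative to library size was 2.40 times that in DIO, with an exact Clopper-Pearson 95% interval of 1.20 to 5.05 that covers counting error only. Between livers the groups overlapped, and an exact two-sided permutation test of the CPM gave p = 0.159, the smallest value the design allows being 0.0159. The ratio of RYGB to DIO was 1.38 (0.663 to 2.97, exact permutation p = 0.619).

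The second comparison concerned gastric bypass, which leaves the bile duct in place. None of the 7 genes tested differed between RYGB and DIO past the FDR, and neither did any other gene (0% of 14252; 8.71% had an unadjusted p under 0.05). Among the 7, only *Krt18* had an unadjusted p under that threshold, with a log2 fold change of 0.89 (SE 0.405, adjusted p = 0.564 by edgeR). That of *Sox9* was 0.75 (SE 0.355, adjusted p = 0.577), and 3 of the 5 RYGB livers exceeded all DIO livers. Those of *Spp1*, *Krt8* and *Krt19* were 0.44, 0.42 and 0.29, and those of *Epcam* and *Krt7* were 0.03 and 0.01, the sign of *Krt7* depending on the scaling. Under voom with quality weights (limma) *Krt18* passed the FDR in RYGB (log2 fold change 0.88, adjusted p = 0.0289). That fit called 867 of 14252 genes higher in RYGB and 823 lower.

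GB-IL and RYGB were also set against each other, since both groups had been operated on. None of the 7 genes passed the FDR, nor did any gene tested (0%; 22.1% had an unadjusted p under 0.05). *Krt19* had a log2 fold change of 2.61 and *Spp1* one of 1.91, both with an adjusted p of 0.0552. The values were 2.43 for *Krt7* (adjusted p = 0.0839), 2.05 for *Epcam* (0.0884), 0.86 for *Krt18* (0.243), 0.08 for *Krt8* (0.894) and -0.15 for *Sox9* (0.824). *Krt19*, *Spp1*, *Krt7* and *Epcam* had an unadjusted p under 0.05, and DESeq2 and edgeR's exact test each called these 4. Over all genes DESeq2 called 654 higher in GB-IL and 191 lower, and the exact test 568 and 113. Without GB-IL livers 1 and 2 the log2 fold change was 1.06 for *Krt19*, 1.31 for *Spp1*, 0.64 for *Krt7* and -0.30 for *Sox9*, and *Krt8*, *Krt18* and *Epcam* changed sign. The comparisons of GB-IL and RYGB with DIO share the DIO livers and are not independent.

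**Figure D3:**
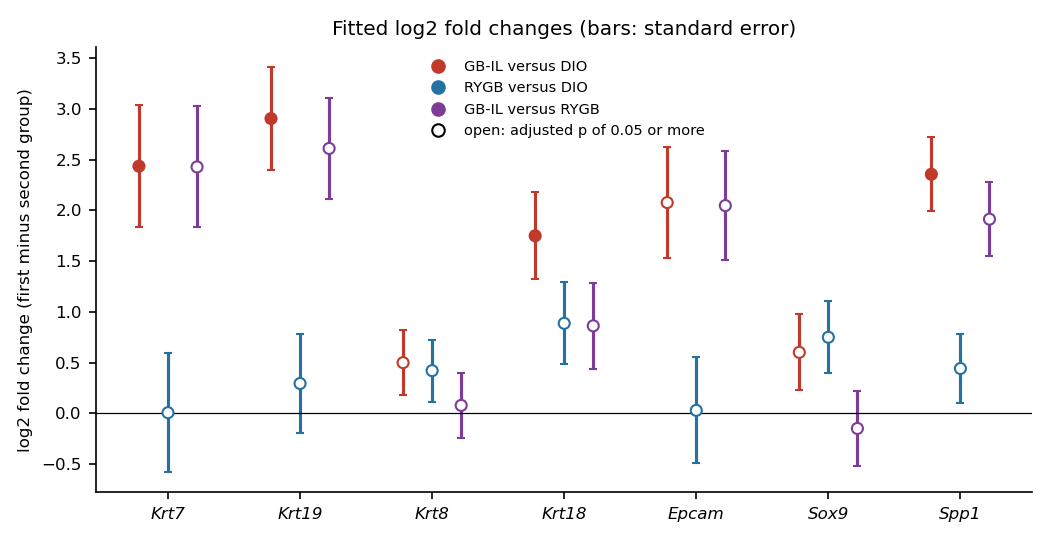
Fitted log2 fold change with its standard error for the 7 genes tested in the 3 comparisons (all 14 livers in 1 fit), filled where the adjusted p is below 0.05. The filled points are Krt7, Krt19, Krt18 and Spp1 in GB-IL versus DIO, and no point is filled in the comparisons with RYGB.

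The calls against DIO depended on single livers. None of the 7 genes passed the FDR without GB-IL liver 1 (smallest adjusted p 0.0599), without GB-IL liver 2 (0.0581) or without any one of the 5 DIO livers (0.0618 to 0.0942). No other gene tested passed in any of these fits either. Of the 7, *Krt19* and *Spp1* alone passed without any one of RYGB livers 1 to 4, although these livers are in neither group compared. Over all genes, 288 to 334 were called higher in those fits. The count was 5, with *Epcam* included, when GB-IL liver 3 or GB-IL liver 4 was left out. Over all genes, 540 of 14445 were called higher without liver 3 and 2228 of 14492 without liver 4. The log2 fold change of *Krt19* stayed between 2.43 and 3.22 and that of *Spp1* between 2.08 and 2.66 over these 14 fits, while that of *Krt7* ranged from 1.42 to 2.78.

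**Figure D4:**
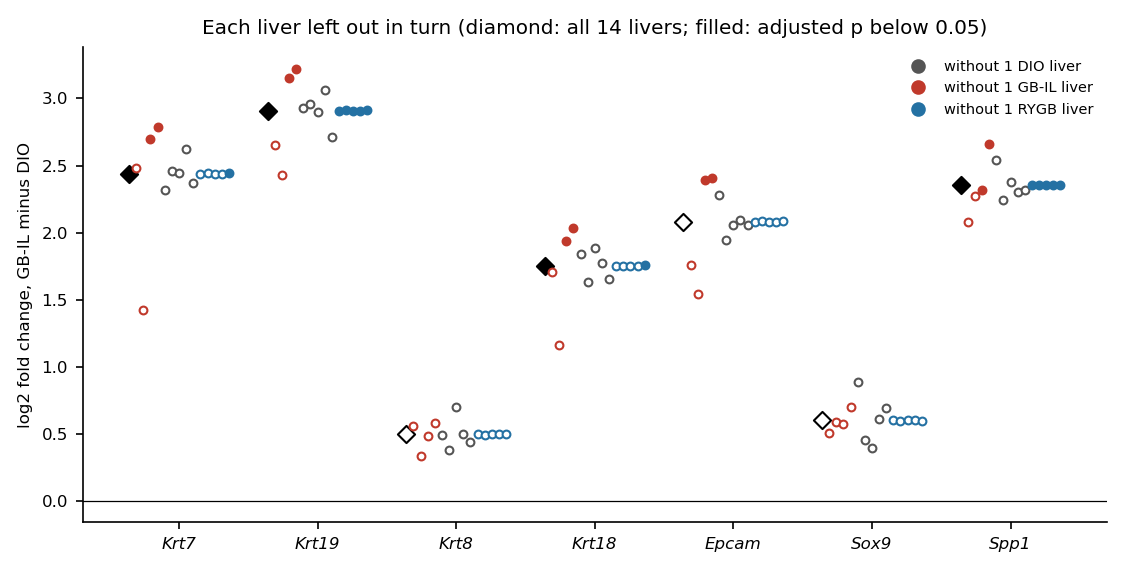
Log2 fold change of GB-IL against DIO for the 7 genes tested, with all livers (diamonds) and with each liver left out in turn (points coloured by the group of the liver left out), filled where the adjusted p is below 0.05. Every value is above 0, and no gene is filled when liver 1 or 2 of GB-IL or any DIO liver is left out.

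The livers that stood highest for these genes also differed in other marker lists. The sum of 8 pancreatic genes was 1304 CPM of the total count in GB-IL liver 1, 8.59 to 13.97 CPM in the other GB-IL livers, 14.2 to 37.1 CPM in DIO and 7.65 to 23.5 CPM in RYGB. None of the list was at 0 in all livers, and its most abundant genes were *Ctrb1* and *Cela1*. The sum of 14 squamous epithelial genes, led by *Krt13* and *Lor*, was 357 CPM in GB-IL liver 1 and 31.7 CPM in liver 2, against 3.88 CPM in liver 3 and 3.29 CPM in liver 4, and 2.00 to 3.35 CPM in all DIO and RYGB livers. Liver 3 was thus also above every DIO and RYGB liver for this list, by a small margin. The part of these tissues in the results was not tested.

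The sum of 19 macrophage genes, led by *Cd5l* and *Lyz2*, was 1372, 1740, 2522 and 1002 CPM in GB-IL livers 1 to 4, all above the DIO livers (463 to 829 CPM), and 561 to 1260 CPM in RYGB. Of the 19, 10 were called higher in GB-IL than in DIO and 0 lower, against 3.15% and 0.112% over all genes. The median log2 fold change was 1.78, against 0.04 over all genes. The fit without GB-IL livers 1 and 2, in which no gene at all passed, called 0 of them (median 1.41). GB-IL liver 3 was thus the highest for macrophage genes. The sum of 15 stellate cell and fibroblast genes (*Dcn* and *Gas6* the most abundant) was 374 to 1036 CPM in GB-IL, with the highest value in liver 1, 267 to 469 CPM in DIO and 380 to 710 CPM in RYGB. The 17 genes of gallbladder and gut epithelium, led by *Fabp2* and *Lgals4*, summed to 59.3 to 235 CPM in GB-IL. In DIO they summed to 90.5 to 224 CPM. *Fabp2* alone was at 5.42 to 27.9 CPM in GB-IL livers 1 to 3, 201 CPM in liver 4 and 66.6 to 191 CPM in DIO. Of the 4 tested, 1 was called higher in GB-IL, *Tff3*, and 0 lower, against 3.15% and 0.112% over all genes. *Muc5ac* and *Muc5b*, mucins of the gallbladder that no set rule named, had 1 count each over all livers. The 9 mesothelial genes (*Msln* and *Upk3b* the most abundant) summed to 30.5, 4.89, 22.5 and 13.3 CPM in GB-IL livers 1 to 4, 2.92 to 13.4 CPM in DIO (median 4.00) and 2.27 to 12.4 CPM in RYGB. Of the 6 mesothelial genes tested, 0 were called in GB-IL against DIO, 5 had an unadjusted p under 0.05, and the median log2 fold change was 1.95. Over all 14252 genes tested, 3297 had an unadjusted p under 0.05 in this comparison. The 9 endothelial genes, led by *Stab2* and *Stab1*, summed to 817 CPM in RYGB liver 5, the liver with the highest *Krt8*, against 244 to 322 CPM in DIO and 247 to 350 CPM in GB-IL. The part of these cell types in the results was not tested.

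**Figure D5:**
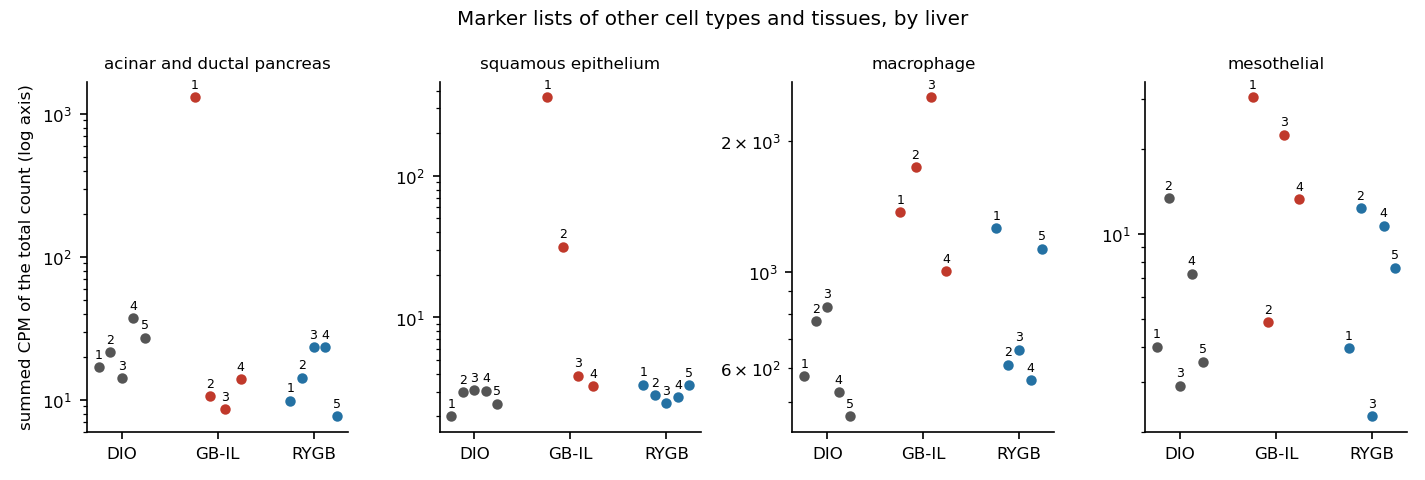
Summed level (CPM of the total count, log axes) of marker lists for pancreas, squamous epithelium, macrophages and mesothelium in each liver, with liver numbers above the points. GB-IL liver 1 stands at 1304 CPM for pancreas and 357 CPM for squamous epithelium, GB-IL liver 2 at 31.7 CPM for squamous epithelium, and all 4 GB-IL livers lie above the DIO livers for macrophage genes.

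A wider list of 30 further genes of biliary epithelium was examined, of which 26 were tested. In GB-IL 8 were called higher than in DIO and 0 lower, against 3.15% and 0.112% over all genes. The median log2 fold change was 1.25 against 0.04 over all genes. The fit without GB-IL livers 1 and 2, in which no gene at all passed, called 0 of them (median 0.31). The genes with the smallest p were *Tmprss2*, a membrane serine protease (4.81 ± 0.801 CPM in DIO, n = 5, and 20.1 ± 11.8 CPM in GB-IL, n = 4, adjusted p = 0.0278 by edgeR), *Anxa3*, an annexin (4.40 ± 0.56 and 11.7 ± 3.96 CPM, log2 fold change 1.41), and *Tspan8*, a tetraspanin (0.657 ± 0.174 and 6.78 ± 7.87 CPM, log2 fold change 3.35). The other called genes were *Elf3*, *Ehf*, *Spint1*, *Muc1* and *Bicc1*, the first pair of which encode epithelial ETS transcription factors. *Pkhd1*, the gene of the cilium protein fibrocystin, which was named after its values were seen, had 6.01 ± 1.19 and 4.29 ± 3.18 CPM and did not pass (adjusted p = 0.459). In RYGB none of the 26 passed the FDR, with a median log2 fold change of 0.37. There *Tmprss2* and *Bicc1* were above every DIO liver in 5 of 5 livers, at 9.92 ± 2.78 and 5.07 ± 1.47 CPM, where 1.87% of all genes tested had RYGB above DIO in this way.

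Signals and receptors of the ductular reaction gave 1 call among 22 genes tested, a count near the 3.15% called higher over all genes. This was *Tnfrsf12a*, the receptor of the cytokine TWEAK, at 3.32 ± 0.497 CPM in DIO (n = 5) and 42.4 ± 47.3 CPM in GB-IL (n = 4), with a log2 fold change of 3.67 (SE 0.848, adjusted p = 0.0340 by edgeR). All 4 GB-IL livers exceeded the DIO livers, as for 2.67% of all genes tested, and so did 4 of 5 RYGB livers. *Tead4*, a transcription factor that works with YAP, and *Tgfb2*, a ligand of the TGF-β pathway, had log2 fold changes of 2.54 and 1.53 and missed the FDR (adjusted p = 0.0544 and 0.0860). The median over the list was 0.37 in GB-IL and 0.47 in RYGB, where 20 of the 22 were above 0 and none passed the FDR. No gene of the list was called in GB-IL without livers 1 and 2, a fit in which no gene at all passed.

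Among 12 receptors and processing partners of osteopontin that were tested, 3 were called higher in GB-IL than in DIO and 0 lower. Over all genes the shares were 3.15% and 0.112%. The median log2 fold change was 0.67. The fit without GB-IL livers 1 and 2, in which no gene at all passed, called 0 of them (median 0.56). *Mmp7*, matrilysin, was at 0.214 ± 0.116 CPM in DIO (n = 5) and 73.3 ± 116 CPM in GB-IL (n = 4), and 3 of the 4 GB-IL livers exceeded all DIO livers (adjusted p = 0.0278 by edgeR). *Mmp12*, the macrophage metalloelastase, which is also on the macrophage list, was at 1.58 ± 0.105 and 12.1 ± 10.04 CPM, and *Thbs1*, the matrix protein thrombospondin 1, at 1.13 ± 0.83 and 8.92 ± 11.5 CPM.

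Partners of the simple epithelial keratins gave 2 calls among 14 genes tested, both higher in GB-IL, where 3.15% of all genes were (median log2 fold change 0.31). The fit without GB-IL livers 1 and 2, in which no gene at all passed, called 0 of them. *Vim*, the filament protein vimentin of mesenchymal cells and macrophages, was at 20.9 ± 2.98 CPM in DIO (n = 5) and 58.5 ± 25.5 CPM in GB-IL (n = 4). *Evpl*, the cornified envelope protein envoplakin, was at 0.522 ± 0.222 and 3.28 ± 3.53 CPM. *Trp53inp1*, with a log2 fold change of 1.33, missed the FDR (adjusted p = 0.0880). Of 27 further keratin genes listed, 13 had under 10 counts over all livers and *Krt10* and *Krt23* were the ones tested, with 0 called. Several that could not be tested were high in single GB-IL livers, such as *Krt4*, a keratin of squamous mucosa named after its values were seen, with up to 205 CPM in GB-IL and 0.105 CPM in DIO. *Krt23* was at 4.74 ± 4.07 CPM in DIO, 4.37 ± 3.51 CPM in GB-IL and 0.661 ± 0.123 CPM in RYGB, where all 5 livers were below every DIO liver, as RYGB was wholly above or below DIO for 3.53% of genes (log2 fold change -2.84, SE 0.706, adjusted p = 0.331). *Krt10* had 1.46 ± 0.21 CPM in DIO and 1.74 ± 0.357 CPM in GB-IL (adjusted p = 0.472).

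How alike the genes were over the livers depended on GB-IL livers 1 and 2. Over all 14 livers, Pearson's r of log2(CPM + 0.5) was 0.93 for *Krt7* and *Krt19*, 0.92 for *Krt19* and *Epcam*, 0.89 for *Krt19* and *Spp1*, and 0.88 for *Krt7* and *Epcam*. Without GB-IL livers 1 and 2, these became 0.69, 0.25, 0.74 and 0.06 over 12 livers. For *Krt8* and *Krt18* it was 0.75 over all livers and 0.83 without the pair. *Sox9* had r of 0.14 to 0.44 with the other 6 genes. These values describe libraries that share their groups and their composition, and no test was made.

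Over 12695 genes with a mean of at least 1 CPM, those most alike to each gene were mostly of other kinds. For *Spp1* they were *Casp4*, *Relb* and *Nfkb2* (r of 0.95, 0.95 and 0.94, and 0.91, 0.90 and 0.88 without GB-IL livers 1 and 2), an inflammatory caspase and a pair of NF-κB subunits. For *Krt18* they were *Rpl12*, *Rpl23a-ps3* and *Rpl22l1* (0.95, 0.95 and 0.95), which include ribosomal protein genes. *Mmp7* was among those of *Krt7*, beside *Rit1* and *Vars* (0.95 each), and *Ctps2*, *Clec4d* and *Gm8430* were closest to *Krt19* (0.96 each). *Epcam* was closest to *Ddx28*, *Arglu1* and *Elovl7* (0.98, 0.97 and 0.97), values that fell to 0.72, 0.65 and 0.63 without the livers named above. *Il3ra*, *Uap1l1* and *Nck2* were closest to *Krt8* (0.89, 0.88 and 0.86), and *Abtb2*, *Sf3b3* and *Kdm4a* to *Sox9* (0.82, 0.81 and 0.81).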

How the data were processed

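Liver RNA of 14 mice (5 DIO, 4 GB-IL and 5 RYGB, grouped by the sample labels) was sequenced by the authors, who deposited the raw count of reads per gene and liver, obtained with TopHat 2 on mm10 and HTSeq. The study's methods describe amplification of the RNA, and the labels list 2 library kits but not which liver had which, so kit was no term in any fit. For tool versions, annotation and strandedness of counting: not given in the sources used here. Counts were kept by edgeR's filterByExpr, scaled by TMM and fitted with a quasi-likelihood model of 3 group means over all livers (edgeR 4.0.16, R 4.3.3, robust estimation off), with Benjamini-Hochberg adjustment over 14252 genes at an FDR of 0.05. The fit was tested on simulated data. limma 3.58.1 and DESeq2 1.42.0 were alternatives, and Python 3.11.15 with scipy 1.17.1 gave the other values. Marker lists were summed as CPM of the total count. Gene positions and lengths are from GENCODE M21, to which 24701 identifiers matched. Some results are not reported here. Members and lists were chosen with earlier results of these data known. Named besides the members were the 3 genes with the smallest p in each related list, the 2 tested further keratins, the 2 most abundant genes of each cell type list and the 3 genes most alike to each member. *Cftr* was compared by exact two-sided permutation tests of its CPM. Each library is 1 mouse, and p-values measure the spread between these livers.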

Additional observations from a re-analysis of the deposited data

Results flagged for a closer look

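These values lay far from the rest of their group, by the ratio of the gap to the nearest liver to the range of the group (above Dixon's 95% critical value for a group of that size). *Krt8* in RYGB liver 5 was at 457 CPM, with the next RYGB liver at 239.99 CPM, a ratio of 0.727. *Cftr* in GB-IL liver 2 was at 0.734 CPM (13 counts), with the next at 0.221 CPM, a ratio of 0.979. In all, 24 groups of values were examined in this way, and chance alone flags about 1 in 20.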

How the results depend on the processing

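The 7 tested genes were refitted under 25 alternatives. In GB-IL against DIO, where 4 were called, 4 were called with RLE or total count scaling, without a filter on low counts and with robust estimation, 3 with a mean of at least 50 counts (*Krt7* was then not tested), and 5 with DESeq2 and with edgeR's exact test. The main fit called 449 of all 14252 genes higher and 16 lower. DESeq2 called 1107 and 185 of them, and the exact test 1032 and 97. Of the 7 genes, 2 were called under voom with quality weights and 0 when only the 2 compared groups were fitted. Also 0 were called when GB-IL livers 1 and 2 were left out, an alternative chosen after seeing the data. Over all genes voom called 510 higher and 79 lower, and the fits that gave 0 called no gene at all. Leaving out 1 liver at a time gave 0 to 5. In RYGB against DIO, where 0 were called, voom called 1, and leaving out 1 liver gave 0 to 0. Over all genes voom called 867 higher and 823 lower there. In GB-IL against RYGB, where 0 were called, 2 were called without a filter, 4 by DESeq2, 1 by voom and 4 by the exact test, and 0 to 5 with 1 liver left out (5 without GB-IL liver 4, 1 without GB-IL liver 3, 0 without any other). Over all genes, DESeq2 called 654 higher and 191 lower, and the exact test 568 and 113. Voom called 111 and 4, and the fit without a filter 49 and 2. With GB-IL liver 4 left out, 1948 of 14492 genes were called higher and 1172 lower. With GB-IL liver 3 left out these were 23 and 1 of 14445. Signs reversed in 19 of 522 values of single genes, none of them called. For RYGB against DIO, *Krt7* had a log2 fold change of -0.0049 with RLE, -0.0032 with DESeq2 and -0.22 with voom, and -0.17 to 0.20 with 1 liver left out, and *Epcam* had -0.11 to 0.23 with 1 liver left out. For GB-IL against RYGB, *Krt8* had -0.0820 with total count scaling, -0.0871 to 0.43 with 1 liver left out, and -0.0640 without GB-IL livers 1 and 2, where *Krt18* had -0.29 and *Epcam* -0.0101. The cause of these changes was not tested. Low counts limit *Cftr*, with 0 to 13 reads per liver, and *Krt7*, with 11 to 24 reads per DIO liver.

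With the replicate number as a block, 0 of the 7 genes were called in any comparison, and the smallest adjusted p in GB-IL against DIO was 0.0677. Over all 14252 genes this fit called 1 in GB-IL against DIO and 0 in the other comparisons. *Krt7* in RYGB against DIO then had a log2 fold change of -0.15. The numbers did not pair the livers: the correlation of same-numbered livers' deviations from their group means was -0.41 to 0.40 over 13 pairs, above 0.1 in 2 of them, and 1 of 14 livers correlated best with its own number.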

Other observations

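*Tff3*, the trefoil peptide of mucous epithelia, was the only tested gene of gallbladder and gut epithelium called in GB-IL, of 4 tested. Over all genes, 3.15% were called higher there. It was at 0.855 ± 0.719 CPM in DIO (n = 5), 32.3 ± 30.9 CPM in GB-IL (n = 4) and 12.6 ± 11.3 CPM in RYGB (n = 5). The log2 fold change against DIO was 5.24 in GB-IL (SE 1.11, adjusted p = 0.0297 by edgeR, 3 of 4 livers above all DIO livers) and 3.89 in RYGB (SE 1.04, adjusted p = 0.348, 5 of 5 livers above). Of all genes tested, 1.87% had all RYGB livers above all DIO livers. Without GB-IL livers 1 and 2 no gene passed the FDR in GB-IL. *Tff3* was named after its values had been seen.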
